A study of Mus musculus with 16 samples.

Results

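Cholesterol synthesis and its control by the sterol regulatory element-binding proteins (SREBPs) were followed in mouse aortic valves through 28 genes. The genes were chosen by name from a table of 20992 rows of normalised counts. Gene symbols are given in capitals, as in the table. They comprised 8 enzymes grouped as the early pathway from acetyl-CoA to farnesyl pyrophosphate and 11 enzymes of squalene and sterol formation. The rest were the branch enzyme GGPS1, 7 genes of SREBP regulation, and the sterol carrier STARD4. The first 2 sets are called the 19 sterol synthesis enzymes below, although they include ACAT1, a mitochondrial thiolase of ketone body and isoleucine breakdown. Whole aortic valves were compared in 4 groups, all on a C57BL/6J background and planned at 4 samples each. Control mice (CON, n = 4, 1 female) stood beside hypertensive mice that overexpress transgenes for human renin and human angiotensinogen (HT, n = 4, 2 females). Hypercholesterolaemic mice lacked Apoe (HC, n = 4, 3 females), and HC/HT mice carried the knockout together with both transgenes (n = 3, 2 females). HC/HT replicate 4 was not analysed here. The labels state no age, diet, transgene promoter, or whether a library was 1 mouse or a pool. The p-values therefore measure only the spread between these libraries.

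Animal cells build cholesterol from acetyl-CoA by way of mevalonate, farnesyl pyrophosphate, squalene and lanosterol. The rate is set largely by SREBP-2, encoded by SREBF2, while the main product of SREBF1 drives fatty acid synthesis. When sterol in the endoplasmic reticulum is scarce, SCAP escorts SREBPs to the Golgi, where the proteases encoded by MBTPS1 and MBTPS2 release the active factor. When sterol is plentiful, INSIG1 and INSIG2 hold SCAP back, and INSIG1 is itself an SREBP target. Excess sterol also activates the LXR receptors, which switch on export genes such as ABCA1 and ABCG1. Loss of Apoe raises plasma cholesterol in mice, and lipid-laden macrophages are a known feature of diseased valves.

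SREBPs bind sterol regulatory elements in promoters, often beside a site for the factor NF-Y. Promoters of 5 members are shown, out of those whose values are given in every library. The choice went by the number of matches in a window to the letters marked below, and not by level. EBP, with 2 matches, tied with ACAT2 and INSIG1 and is not shown. The windows are not printed in order of their matches. The promoters are RefSeq sequences on GRCm38.p6, each running from 250 bases before to 50 after a transcription start. Capitals mark matches on either strand to CACNCCAC, a core of the sterol regulatory element (GTGGNGTG on the opposite strand), and to CCAAT, the NF-Y box (ATTGG on the opposite strand). The windows are, in order, chr13:119690101-119690400 (plus strand), chr8:64733529-64733828 (minus strand), chr17:12960676-12960975 (minus strand), chr5:28071162-28071461 (plus strand) and chr1:121332540-121332839 (minus strand).
HMGCS1: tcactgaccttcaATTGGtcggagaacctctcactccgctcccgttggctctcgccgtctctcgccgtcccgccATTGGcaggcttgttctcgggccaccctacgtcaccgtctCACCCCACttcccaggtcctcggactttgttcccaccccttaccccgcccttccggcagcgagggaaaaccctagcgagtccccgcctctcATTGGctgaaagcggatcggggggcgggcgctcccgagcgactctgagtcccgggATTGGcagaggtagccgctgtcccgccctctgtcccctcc
SC4MOL: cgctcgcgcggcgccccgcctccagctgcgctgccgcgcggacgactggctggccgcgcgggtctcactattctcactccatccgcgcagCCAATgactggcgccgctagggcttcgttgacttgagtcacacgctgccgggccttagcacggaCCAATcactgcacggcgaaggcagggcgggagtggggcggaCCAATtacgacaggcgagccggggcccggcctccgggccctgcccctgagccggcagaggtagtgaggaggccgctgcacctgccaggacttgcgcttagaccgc
ACAT2: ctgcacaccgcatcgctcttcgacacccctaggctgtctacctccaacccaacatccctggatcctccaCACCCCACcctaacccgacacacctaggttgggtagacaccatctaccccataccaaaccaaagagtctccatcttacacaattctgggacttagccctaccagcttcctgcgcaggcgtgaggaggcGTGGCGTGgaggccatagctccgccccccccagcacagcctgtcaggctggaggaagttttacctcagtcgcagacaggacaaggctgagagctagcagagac
INSIG1: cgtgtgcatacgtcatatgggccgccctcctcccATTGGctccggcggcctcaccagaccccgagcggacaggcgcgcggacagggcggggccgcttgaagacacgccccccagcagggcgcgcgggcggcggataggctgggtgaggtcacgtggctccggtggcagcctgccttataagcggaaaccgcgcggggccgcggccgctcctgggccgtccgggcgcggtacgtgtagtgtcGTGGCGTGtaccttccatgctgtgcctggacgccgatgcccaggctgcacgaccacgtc
INSIG2: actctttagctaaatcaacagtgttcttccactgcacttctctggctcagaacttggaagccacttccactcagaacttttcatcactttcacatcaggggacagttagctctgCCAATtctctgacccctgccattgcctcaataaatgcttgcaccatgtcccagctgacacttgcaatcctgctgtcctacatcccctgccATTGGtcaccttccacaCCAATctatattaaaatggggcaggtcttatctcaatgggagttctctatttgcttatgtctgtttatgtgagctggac
The HMGCS1 window held 1 match to the sterol element and 4 NF-Y boxes, ACAT2 held 2 sterol elements and 0 NF-Y boxes, and INSIG1 held 1 of each. SC4MOL and the INSIG2 window shown each held 3 NF-Y boxes and 0 sterol elements in these letters. INSIG2 has 2 further RefSeq windows, at other starts, and each held 0 of both. Promoters matched 23 of the 28 members, 31 windows in all. The sterol element letters occurred in 3 windows (9.68%), against 6.24% of 32851 RefSeq promoters of the same length. The NF-Y box occurred in 20 windows (64.5%), against 37.4% of all promoters, and in at least 1 window of 19 of the 23 members. Both occurred together in 2 windows, those of HMGCS1 and INSIG1 (6.45%, against 2.09%). A match is a description of these letters and not a mapped binding site.

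Levels are given in units, the authors' normalised count multiplied by 0.0979537, which sets the median library total to 1000000. The deposited totals were nearly equal, so depth is unknown and no counting interval can be given. Between 16006 and 17608 genes were above 0 in each library, and 4 rows, led by the ribosomal RNA precursor Rn45s, took 32.4% to 62.7% of the total. Because a large share in these rows lowers all other values, sums are also given after median-of-ratios scaling, which divides each library by its median ratio to a common reference (factors 0.636 to 1.34). Apoe was at 2.15 to 12.3 units in the 4 HC libraries, 5.98 to 9.80 in HC/HT, 56.6 to 609 in HT and 398 to 1014 in CON. Valve interstitial and fibroblast markers (11 genes) summed to between 4966 and 17298 units in every library, and the 12 cardiomyocyte markers to between 177 and 12157, highest in HT replicate 2. In whole valves, fewer cells of a type and less RNA per cell cannot be told apart. All 28 members passed the filter for testing, at least 1 unit in at least 4 libraries, with 15004 genes tested in all.

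Transcripts of the sterol synthesis enzymes were high in 2 of the 3 HC/HT valves and in 2 of the 4 HT valves, and near the control level in the others. The summed level of the 19 enzymes was 251, 247, 239 and 139 units in CON replicates 1 to 4 (219 ± 53.7, mean ± SD). It was 333, 157, 371 and 148 in HT replicates 1 to 4 (252 ± 116), and 251, 251, 257 and 180.0 in HC (235 ± 36.7). The HC/HT values were 827, 531 and 158 (505 ± 336, n = 3). HT replicates 1 and 3 and HC/HT replicates 1 and 2 thus lay above every CON and HC library. HT replicates 2 and 4 and HC/HT replicate 3 lay inside the CON range. The mitochondrial ACAT1 alone gave 51.7 ± 13.4 units of the sum in CON and 21.1 ± 1.67 in HC/HT. After median-of-ratios scaling the sum was 175 to 199 in CON and 190 to 215 in HC, so these groups became tight. On that scale HT stood at 305, 246, 553 and 151 and HC/HT at 736, 568 and 169. HT replicate 2 was now also above every CON and HC library, but ACAT1 alone gave 86.0 of its 246 units. On the same scale ACAT1 was at 33.6 to 55.1 units in CON and 26.3 to 37.9 in HC. By the labels, HT replicate 1 and HC/HT replicate 2 were female and HT replicate 3 and HC/HT replicate 1 male.

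**Figure D1:**
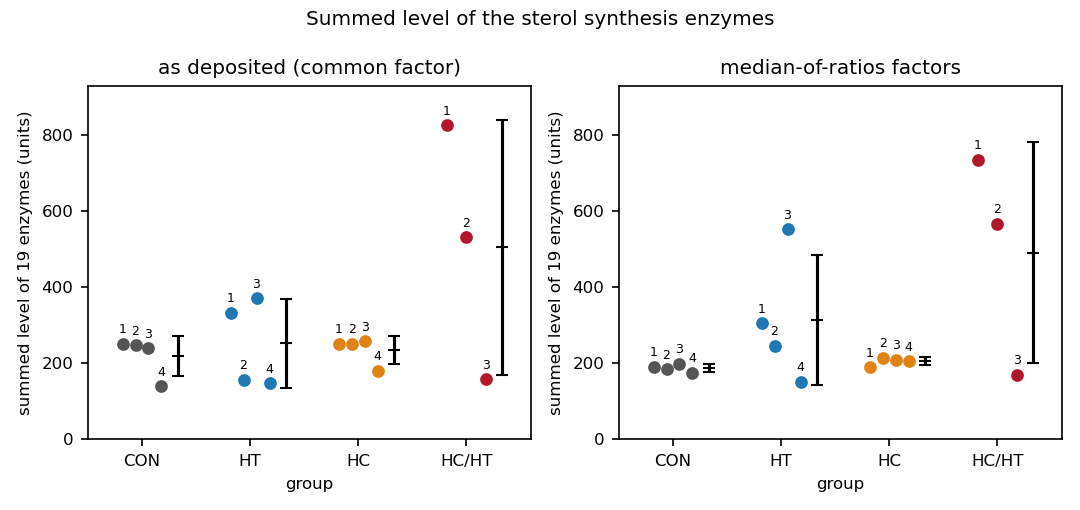
Summed level of the 19 sterol synthesis enzymes (vertical axis, units) in each library by group, as deposited (left) and with median-of-ratios factors (right). Dots are libraries with their replicate number and bars are mean ± SD (n = 4, n = 3 in HC/HT); HT replicates 1 and 3 and HC/HT replicates 1 and 2 lie above all CON and HC libraries in both panels.

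Counting enzymes above the highest CON library gave the same picture. In HC/HT replicates 1, 2 and 3, 15, 15 and 3 of the 19 enzymes exceeded every CON library, and 19, 17 and 4 of the 28 members did. The share of all tested genes above the highest CON library was 18.2%, 14.8% and 10.7% in these libraries. In HT replicates 1 to 4 the enzyme counts were 10, 0, 12 and 0 and the member counts 11, 0, 14 and 0, against 11.4%, 2.65%, 3.87% and 12.7% of all genes. In HC replicates 1 to 4, 6, 6, 6 and 1 enzymes and 7, 6, 7 and 2 members exceeded every CON library, against 25.3%, 16.3%, 24% and 9.7% of all genes, so the shares of members in HC were near those of all genes. With median-of-ratios factors the enzyme counts were 15, 15 and 5 in HC/HT, 13, 6, 14 and 2 in HT, and 5, 8, 6 and 8 in HC, against 18.9% to 28.2% of all genes in these 11 libraries. HT replicate 3 had the highest level of its group in 11 of 19 enzymes, although it was the highest in only 6.32% of all genes tested. HC/HT replicate 3 was the lowest of its group in 17 of 19 enzymes and in 38.9% of all genes.

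**Figure D2:**
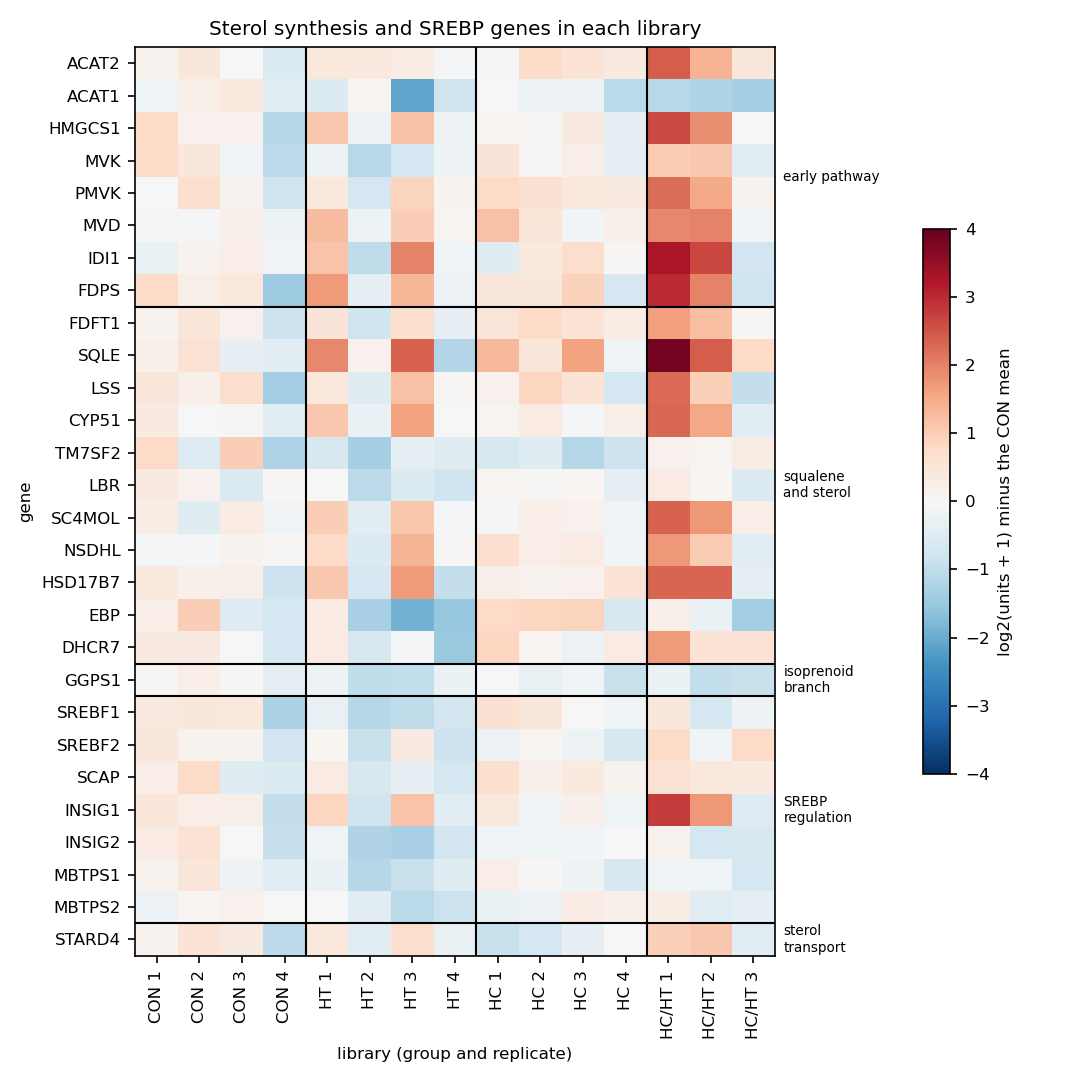
Level of the 28 genes (rows, ordered by role) in the 15 libraries (columns), as log2(units + 1) minus the mean of the 4 CON libraries; red is higher and blue lower than CON. Most enzymes of both pathway stages, and INSIG1, are red in HT 1, HT 3, HC/HT 1 and HC/HT 2, while ACAT1 and GGPS1 are not. Most SREBP regulation genes are red in HC/HT 1 but not in HT 1, HT 3 or HC/HT 2.

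Among the early enzymes, HMGCS1, the synthase that makes HMG-CoA, was at 32.5, 21.1, 21.1 and 7.84 units in CON replicates 1 to 4. It was at 40.6, 16.0, 42.7 and 15.9 in HT, 19.8, 19, 23.8 and 14.5 in HC, and 120.5, 70.3 and 18.8 in HC/HT. The same 4 hypertensive valves were above every CON and HC library, and the other 3 lay among them. ACAT2, the cytosolic thiolase that starts the pathway, was at 4.21, 5.49, 3.72 and 2.25 units in CON, 5.39, 5.29, 4.90 and 3.53 in HT, 3.53, 6.95, 5.98 and 5.09 in HC, and 24.6, 11.6 and 5.58 in HC/HT. All 3 HC/HT valves were above all 4 CON valves for ACAT2, by a narrow margin in replicate 3. HC replicates 2 and 3 were above all CON valves as well. ACAT2 has a close neighbouring paralogue, ACAT3, and the labels do not say how the authors divided shared reads, so its values are uncertain. PMVK, which phosphorylates phosphomevalonate, was at 2.84, 4.90, 3.13 and 1.18 units in CON, 4.02, 1.37, 5.98 and 3.13 in HT, 5.49, 4.80, 4.02 and 3.82 in HC, and 16.8, 9.80 and 3.13 in HC/HT. HC/HT replicate 3 equalled CON replicate 3, so the ranges of these groups overlapped.

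ACAT1, the mitochondrial thiolase of ketone body and isoleucine breakdown, went the other way. It was at 44.3, 59.4, 66.2 and 37.0 units in CON, 34.3, 54.8, 11.3 and 28.7 in HT, 50.2, 43.4, 43.8 and 23.1 in HC, and 22.8, 21.0 and 19.5 in HC/HT. All 3 HC/HT libraries lay below every CON and HC library. MVK, MVD, IDI1 and FDPS complete the early pathway, and IDI1 and FDPS make the farnesyl pyrophosphate from which squalene is built. Mean IDI1 was 8.25 ± 1.59 units in CON and 49.4 ± 41.5 in HC/HT, where the libraries spanned 4.41 to 86.3. Mean FDPS was 5.85 ± 3.37 and 23.8 ± 22.0 units in the same groups, and the HC/HT libraries spanned 2.45 to 46.3. MVK and MVD had group means between 0.833 and 6.99 units, too low to carry much precision.

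In the squalene and sterol steps, SQLE, the epoxidase that commits squalene to sterol, was at 5.98, 7.93, 3.82 and 3.43 units in CON, 21.8, 5.88, 29.9 and 1.67 in HT, 13.8, 7.44, 17.4 and 4.60 in HC, and 85.1, 31.5 and 9.31 in HC/HT. All 3 HC/HT libraries were above all CON libraries, as were HT replicates 1 and 3 and HC replicates 1 and 3. HC/HT replicate 3 lay inside the HC range. SC4MOL (now named Msmo1), the oxidase that starts removal of the methyl groups of lanosterol, was at 16.8, 9.31, 17.2 and 12.0 units in CON and 27.5, 9.60, 30.5 and 12.8 in HT. It was at 12.6, 16.4, 15.3 and 12.2 in HC and 73.3, 47.3 and 16.6 in HC/HT. Here HC/HT replicate 3 fell between the CON libraries but above all HC libraries. CYP51, the lanosterol demethylase, was at 21.6, 16.8, 17.0 and 11.9 units in CON, 36.2, 13.5, 51.9 and 16.7 in HT, 17.9, 20.8, 16.0 and 19.6 in HC, and 83.9, 50.4 and 12.0 in HC/HT. Again HT replicates 1 and 3 and HC/HT replicates 1 and 2 alone exceeded every CON and HC library.

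FDFT1, the squalene synthase, was at 22.3, 28.4, 22.8 and 10.9 units in CON, 29.2, 11.0, 32.7 and 15.7 in HT, 28.5, 35.1, 29.6 and 24.8 in HC, and 64.3, 47.1 and 20.6 in HC/HT. LSS, which cyclises squalene epoxide to lanosterol, was at 7.05, 5.68, 8.42 and 1.18 units in CON, 6.66, 3.13, 11.9 and 5.00 in HT, 5.49, 9.50, 7.44 and 2.55 in HC, and 26.7, 10.2 and 1.96 in HC/HT. For both genes HC/HT replicates 1 and 2 were above every CON library and HC/HT replicate 3 was inside their range. HT replicates 1 and 3 and HC replicates 1 to 3 also exceeded every CON library for FDFT1, narrowly in HC replicate 1. For LSS, HT replicate 3 and HC replicate 2 did so. EBP, the sterol isomerase, had another pattern, at 9.11, 15.8, 4.90 and 4.21 units in CON, 9.70, 2.45, 1.27 and 1.96 in HT, 13.8, 14.3, 14.9 and 4.41 in HC, and 8.82, 6.07 and 2.25 in HC/HT. Its 4 lowest values were in HT replicates 2 to 4 and HC/HT replicate 3, and no HC/HT value exceeded the CON range. DHCR7, which performs a closing reduction, was above the CON libraries in all 3 HC/HT valves, spanning 5.09 to 12.5 units against 1.57 to 4.41. The HC libraries spanned 2.55 to 6.66 units for DHCR7. HSD17B7 and NSDHL act with SC4MOL, and their HC/HT libraries spanned 12.4 to 88.2 and 5.58 to 28.3 units, against 9.01 to 21.9 and 7.25 to 8.62 in CON. The sterol reductases TM7SF2 and LBR had HC/HT means of 3.23 ± 0.259 and 16.5 ± 5.25 units beside CON means of 3.45 ± 2.81 and 17.1 ± 4.64.

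Among the genes of SREBP regulation, INSIG1 had the pattern of the enzymes, and the others are given first. SREBF2 was at 29.2, 23.0, 23.3 and 11.9 units in CON, 22.2, 10.7, 27.2 and 11.4 in HT, 17.7, 22.4, 18.1 and 13.0 in HC, and 35.2, 19.1 and 35.9 in HC/HT. As deposited, its 2 highest libraries were HC/HT replicates 1 and 3. With median-of-ratios factors HT replicate 3 was highest (40.6), followed by HC/HT replicates 3 (38.5) and 1 (31.3). HC/HT replicates 1 and 3 were thus above every CON library in SREBF2 on both scales. SREBF1 was at 33.9, 36.2, 35.3 and 10.3 units in CON, 21.2, 11.4, 12.2 and 15.2 in HT, 40.5, 35.8, 26.2 and 22.9 in HC, and 35.8, 15.7 and 22.3 in HC/HT. All 4 HT libraries lay below the other 3 CON libraries but above CON replicate 4. SCAP, the escort, was at 22.3, 31.5, 12.8 and 12.0 units in CON, 22.9, 11.4, 14.3 and 10.9 in HT, 29.4, 21.3, 24.0 and 20.4 in HC, and 27.7, 25.0 and 24.5 in HC/HT. As deposited, the HC/HT libraries were close together and inside the CON range for SCAP. With median-of-ratios factors they were at 24.7, 26.7 and 26.3, above the highest CON library (23.5).

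INSIG1 followed the enzymes, at 27.6, 23.5, 22.8 and 9.50 units in CON, 36.5, 10.7, 44.4 and 14.2 in HT, 26.4, 18, 22.3 and 17.2 in HC, and 139.9, 67.1 and 13.3 in HC/HT. INSIG2 did not, at 45.0, 54.0, 36.3 and 18.3 units in CON, 31.3, 14.8, 14.1 and 20.7 in HT, 31.9, 31.4, 33.2 and 35.4 in HC, and 39.1, 21.4 and 22.5 in HC/HT. The ratio of INSIG1 to INSIG2 within a library does not depend on the scaling. It lay between 0.436 and 0.628 in CON and between 0.488 and 0.828 in HC. In HT replicates 1 to 4 it was 1.17, 0.722, 3.15 and 0.687, and in HC/HT replicates 1 to 3 it was 3.58, 3.14 and 0.591. HT replicates 1 and 3 and HC/HT replicates 1 and 2 were therefore above every normotensive library on this scale-free measure too. The protease genes MBTPS1 and MBTPS2 had group means of 31.4 to 51.5 and 14.0 to 21.3 units, lowest in HT in each case. The ratio of SQLE to MBTPS1, another measure free of scaling, was 0.0888 to 0.113 in CON and 0.144 to 0.400 in HC. It was 0.522, 0.268, 1.13 and 0.0468 in HT and 1.85, 0.706 and 0.307 in HC/HT, so all 3 HC/HT, all 4 HC and 3 of the 4 HT libraries exceeded every CON library on this ratio, with HC/HT replicate 3 inside the HC range.

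**Figure D3:**
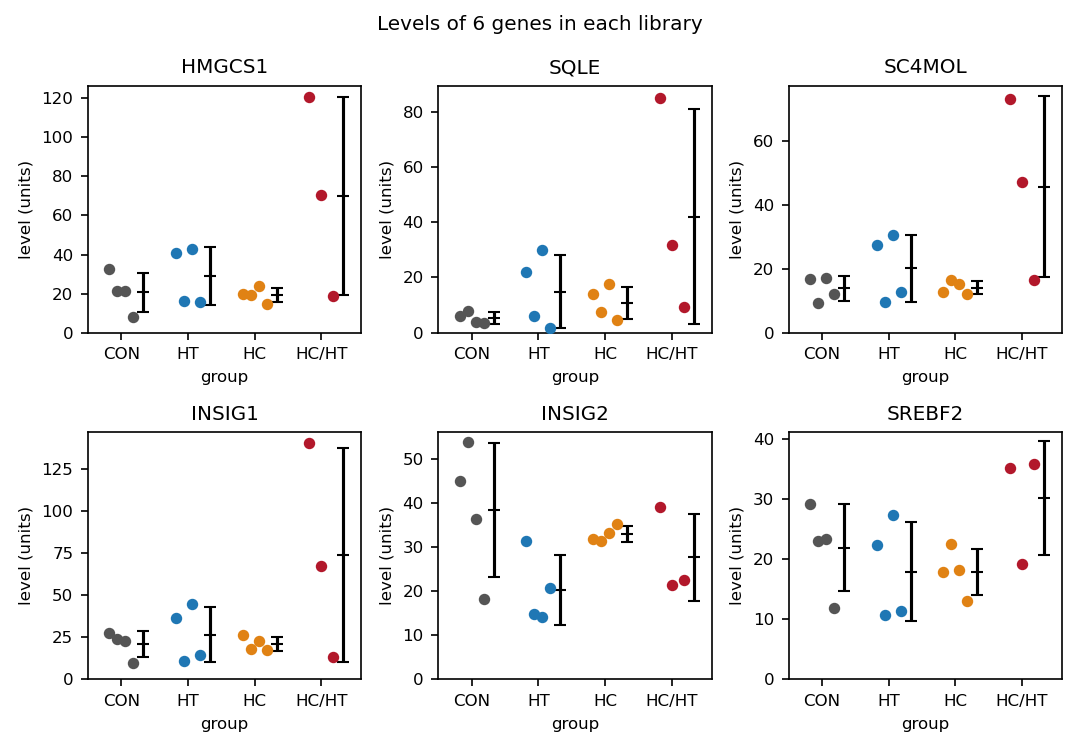
Levels (units, vertical axes from 0 and differing between panels) of HMGCS1, SQLE, SC4MOL, INSIG1, INSIG2 and SREBF2 in each library by group; dots are libraries and bars mean ± SD (n = 4, n = 3 in HC/HT). In HMGCS1, SC4MOL and INSIG1 a pair of HT and a pair of HC/HT libraries lie above all CON and HC libraries, a split not seen in INSIG2.

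STARD4, a soluble carrier that moves sterol between membranes, was at 4.90, 6.66, 5.78 and 1.57 units in CON, 6.17, 2.94, 7.35 and 3.33 in HT, 1.86, 2.25, 3.23 and 4.41 in HC, and 9.21, 10.2 and 2.84 in HC/HT. HT replicate 3 and HC/HT replicates 1 and 2 were above every CON library, and all HC libraries lay inside the CON range. GGPS1 diverts farnesyl pyrophosphate to geranylgeranyl groups for protein anchoring. Its mean in HC/HT was 36.5 ± 10.5 units, beside 39.3 ± 12.3 in HT, 47.0 ± 11.3 in HC and 59.4 ± 10.2 in CON. Per kilobase of exon in GENCODE models, the CON levels were highest for ACAT1, GGPS1 and INSIG2 (13.8, 12.6 and 11.1 units per kilobase) and lowest for LSS and MVD (0.518 and 0.448). In HC/HT, the mean level per kilobase was 23.7 ± 20.5 for INSIG1 and 15.2 ± 11.1 for HMGCS1, each above the 5.61 ± 0.444 of ACAT1, although HC/HT replicate 3 did not share these levels.

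The groups were tested gene by gene with limma on log2(units + 1), with group and sex as terms in 1 fit of 15 libraries. The threshold was an adjusted p (Benjamini-Hochberg, all 15004 genes, two-sided) under 0.05, and differences are given on the log2 scale with their standard error (SE). No member passed in HC/HT against CON (0 of 28), where 0.467% of all genes did. At an unadjusted p under 0.05 there were 12 of 28 members, against 11.4% of all genes. The difference was positive in 20 of the 28 members and in 33.2% of all genes, and the median was 0.94 over the members and -0.20 over all genes. For the 19 enzymes it was positive in 16, with a median of 1.36, and for the 7 regulators in 3, with a median of -0.13. Median-of-ratios factors gave 1.12 over the members and -0.02 over all genes. The groups did not overlap in 3 members that were higher in HC/HT, ACAT2, SQLE and DHCR7 (2.89% of all genes), and in 1 that was lower, ACAT1 (7.66% of all genes). With median-of-ratios factors there was no overlap in 6 higher members, these 3 with FDFT1, SC4MOL and SCAP (6.23% of all genes), and in 2 lower ones, ACAT1 and GGPS1 (6.44%).

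SC4MOL had the smallest adjusted p in this comparison (1.70 ± 0.43, limma adjusted p 0.0712). With median-of-ratios factors it passed (1.89 ± 0.40, limma adjusted p 0.0409). Next came ACAT1 (-1.38 ± 0.40, limma adjusted p 0.146) and ACAT2 (1.51 ± 0.46, limma adjusted p 0.168). Apart from SC4MOL, the largest positive differences were those of SQLE (2.36 ± 0.91, limma adjusted p 0.355), IDI1 (2.05 ± 0.87, limma adjusted p 0.403) and HMGCS1 (1.64 ± 0.58, limma adjusted p 0.276). INSIG1 differed by 1.51 ± 0.69 (limma adjusted p 0.430), SREBF2 by 0.54 ± 0.40, SREBF1 by -0.13 ± 0.42 (0.07 with median-of-ratios factors), SCAP by 0.32 ± 0.37 and INSIG2 by -0.47 ± 0.39. Among single libraries left out, HC/HT replicate 3 moved the count of members most. Without it 6 passed, namely ACAT2, CYP51, HMGCS1, IDI1, INSIG1 and SC4MOL, with 143 genes called in all against 70. The median over the members was then 1.26. This omission removes the HC/HT library that was lowest in 17 of 19 enzymes. Only HC/HT replicates 1 and 2, both high, remain, so the omission itself bears on the count. SC4MOL was the 1 member past the threshold without HC replicate 4 (119 genes in all) or without HT replicate 1 (92 genes). Leaving out together HT replicates 2 and 3 and HC/HT replicate 2 gave 0 members and a median of 0.79. Of these, HT replicate 3 and HC/HT replicate 2 had high enzyme levels, so the omission itself bears on the count.

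**Figure D4:**
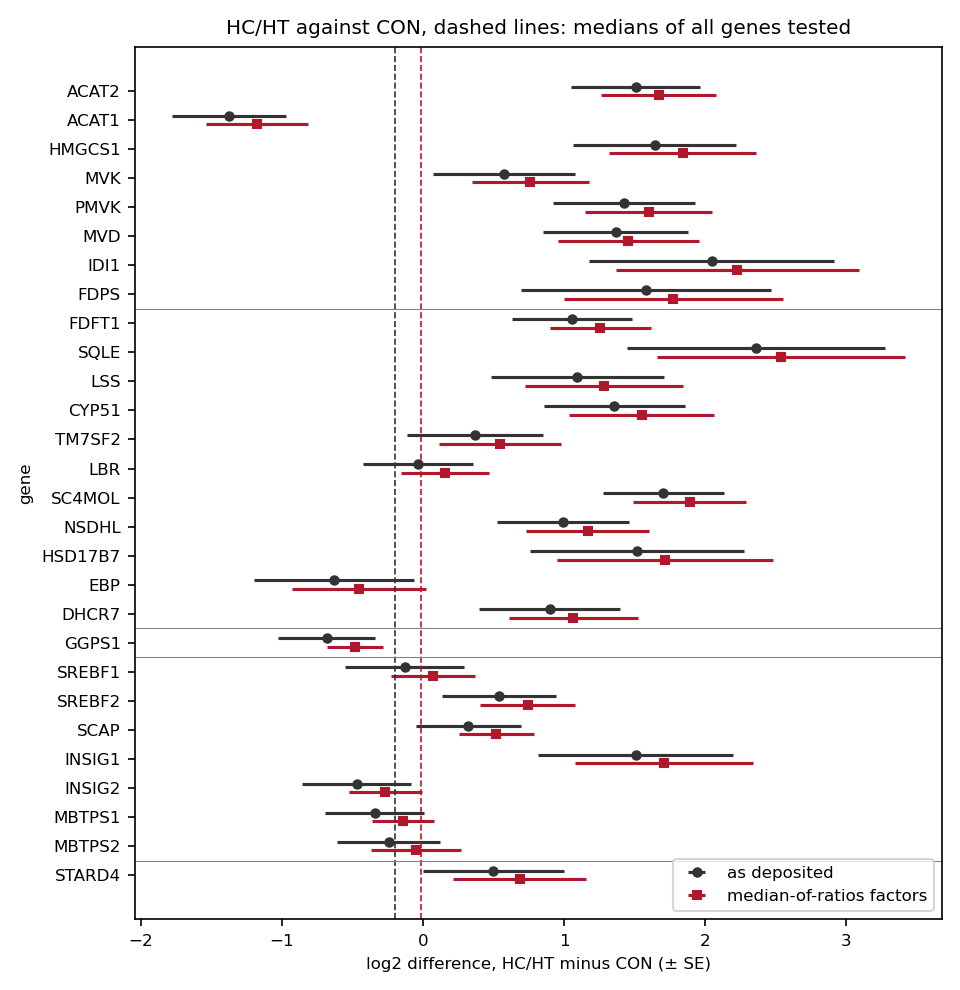
Fitted log2 difference of HC/HT from CON (horizontal axis) with its SE for the 28 genes, as deposited (dark circles) and with median-of-ratios factors (red squares); dashed lines are the medians of all genes tested, -0.20 and -0.02. Of the 19 enzymes (top 2 blocks), 16 lie above 0 as deposited, with ACAT1 and EBP the clearest exceptions.

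With hypertension alone, no member passed either. In HT against CON, limma called 0 of 28 members and 0% of all genes. At an unadjusted p under 0.05 there were 5 members (17.9%) and 1922 genes (12.8%). These 5 members, ACAT1, EBP, INSIG2, MBTPS1 and SREBF1, were all lower in HT. As deposited, the median was 0.08 over the members and -0.42 over all genes, and 13 of 19 enzymes were positive against 13.3% of all genes. Median-of-ratios factors put them at 0.51 and -0.01. INSIG2 (-0.90 ± 0.35, limma adjusted p 0.359), ACAT1 (-0.91 ± 0.36, limma adjusted p 0.360) and EBP (-1.19 ± 0.51, limma adjusted p 0.371) had the smallest p, and with median-of-ratios factors they stood at -0.44, -0.45 and -0.83. SQLE differed by 0.83 ± 0.82 and CYP51 by 0.74 ± 0.45. The groups overlapped in every member (0 higher, against 0.0666% of all genes, and 0 lower, against 4.15%). With median-of-ratios factors MVD and CYP51 were higher in HT without overlap (1.22% of all genes) and 0 members were lower (1.35%). Both margins were narrow. The lowest HT and highest CON values were 0.924 and 0.897 units for MVD, a very low gene, and 17.0 and 16.4 for CYP51.

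With the Apoe knockout alone, no member passed the test. In HC against CON, limma called 0 of 28 members and 0.167% of all genes, with 0 members and 602 genes (4.01%) at an unadjusted p under 0.05. The median difference was 0.27 over the members and -0.02 over all genes, and 16 of 19 enzymes were positive, against 47.3% of all genes. The smallest p belonged to FDFT1 (0.65 ± 0.40), ACAT1 (-0.56 ± 0.38) and PMVK (0.70 ± 0.48), each with a limma adjusted p of 1.00. The enzyme median was 0.42 as deposited, beside 0.35 in HT against CON, where the median over all genes was -0.42. With median-of-ratios factors the order turned, at 0.43 in HC against CON and 0.81 in HT against CON. SQLE differed by 0.84 ± 0.87 in HC against CON. The groups overlapped in every member (0 higher, against 2.81% of all genes, and 0 lower, against 1.76%). With median-of-ratios factors FDFT1 was higher and GGPS1 lower in HC without overlap, 1 of 28 each against 3.84% and 3.05% of all genes, so the members were near the background.

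The remaining comparisons called no member either. In HC/HT against HC, limma called 0 of 28 members and 0% of all genes, with a member median of 0.68 beside -0.18 over all genes. At an unadjusted p under 0.05 there were 5 members (17.9%) and 661 genes (4.41%). SC4MOL had the smallest p there (1.36 ± 0.41, limma adjusted p 0.984). In HC/HT against HT, limma called 0 of 28 members and 0.373% of all genes, with medians of 0.78 and 0.21. At an unadjusted p under 0.05 there were 9 members (32.1%) and 1307 genes (8.71%). The interaction of knockout and transgenes, which asks whether the combined difference departs from the sum of the single ones, called 0 of 28 members and 0% of all genes. At an unadjusted p under 0.05 it held 1 member, TM7SF2 (3.57%), and 207 genes (1.38%). So the larger enzyme levels in HC/HT were not shown to exceed the sum of the separate differences (HMGCS1 interaction 0.91 ± 0.76, SQLE 0.69 ± 1.21).

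Pooling the 7 hypertensive against the 8 normotensive libraries, limma called 0 of 28 members and 0.0133% of all genes. At an unadjusted p under 0.05 there were 10 members (35.7%) and 2501 genes (16.7%). SC4MOL (0.95 ± 0.28, limma adjusted p 0.130), ACAT1 (-0.86 ± 0.26, limma adjusted p 0.144) and EBP (-1.06 ± 0.37, limma adjusted p 0.191) had the smallest p. ACAT1 and EBP passed when HC replicate 4 was left out (limma adjusted p 0.0309 and 0.0408), where the genes called in all went from 2 to 519. The member median was 0.36 beside -0.30 over all genes. Pooling the 7 Apoe knockout against the 8 intact libraries, limma called 0 of 28 members and 1.47% of all genes, with medians of 0.57 and 0.09. At an unadjusted p under 0.05 there were 5 members (17.9%) and 1477 genes (9.84%). These pooled comparisons reuse the libraries of the single ones.

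Neighbouring pathways were read from lists of named genes. The fatty acid arm of the SREBP programme (16 genes, such as ACLY, FASN and the Scd desaturases) had 0 genes past the threshold in any of the 8 comparisons. In HC/HT against CON 9 of the 16 were positive (33.2% of all genes), with a median of 0.04 beside -0.20 over all genes. With median-of-ratios factors these medians were 0.24 and -0.02. The smallest p belonged to SCD2 (0.72 ± 0.43, limma adjusted p 0.576) and ACLY (0.55 ± 0.39, limma adjusted p 0.652). In the LXR arm and sterol export list (14 genes), 10 passed in none of the 8 comparisons. In HC against CON 2 of 14 rose, the exporters ABCA1 and ABCG1, and in HC/HT against CON 1 of 14, ABCG1, from 10.1 ± 4.56 to 56.6 ± 1.13 units (2.40 ± 0.40, limma adjusted p 0.00308). Against HT, 3 of 14 rose in HC/HT, ABCA1, ABCG1 and the lysosomal acid lipase LIPA (1.53 ± 0.35, limma adjusted p 0.0467). With Apoe genotypes pooled, 4 of 14 were higher in knockout valves, these 3 and SOAT1, which esterifies cholesterol for storage (1.09 ± 0.26, limma adjusted p 0.0268).

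Genes that use isoprenoids (14, among them prenyltransferases and coenzyme Q enzymes) had 0 past the threshold in the 8 comparisons. For HC/HT against CON 5 of 14 were positive (33.2% of all genes), the median was -0.08 (0.10 with median-of-ratios factors), and COQ2 (-0.94 ± 0.45, limma adjusted p 0.428) and PGGT1B (-0.88 ± 0.44, limma adjusted p 0.447) had the smallest p. Other regulators of SREBP and sterol enzyme turnover in the endoplasmic reticulum (14) also had 0 past the threshold in the 8 comparisons. Of these, 3 of 14 were positive in HC/HT against CON, with a median of -0.14 that changed sign with median-of-ratios factors (0.06). MARCH6, a ubiquitin ligase that acts on SQLE protein (-0.56 ± 0.31, limma adjusted p 0.526), and SEC24D, of the coat that carries cargo to the Golgi (-0.54 ± 0.37, limma adjusted p 0.630), had the smallest p.

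Markers of other cell types moved between the same libraries, and their part in the enzyme levels was not tested. Macrophage markers (14 genes) summed to 2505 to 4841 units in HC and 2077 to 3264 in HC/HT, beside 1067 to 1643 in CON and 179 to 1791 in HT. In HT they were highest in replicate 1 (1791) and lowest in replicate 3 (179), which both had high enzyme levels. Smooth muscle markers (10 genes) summed to 121 to 166 units in HC/HT, 128 to 719 in HC, 165 to 1414 in HT and 330 to 2995 in CON. Cardiomyocyte markers (12 genes) summed to 177 to 371 units in HC/HT, 213 to 1413 in HC, 382 to 12157 in HT and 532 to 3677 in CON. Schwann cell and nerve markers (10 genes), included because myelinating cells make much sterol, summed to 229 to 307 units in HC/HT and 233 to 471 in HT, beside 250 to 455 in HC and 294 to 584 in CON. The Schwann cell marker sums were 307, 229 and 261 in HC/HT replicates 1 to 3, and 471, 247, 233 and 237 in HT replicates 1 to 4. Adipocyte markers (9 genes) summed to at most 50.8 units in any library, and endothelial markers (10 genes) to 569 to 1245. Melanocyte markers (6 genes) summed to 157 to 283 units in HC/HT, 95.2 to 222 in CON and 33.7 to 97.2 in HT. Erythroid markers (4 genes with a row) ranged from 7.25 to 12149 units. No marker was at 0 in every library. The share of the total in the 4 dominant rows was 45.3%, 53.0% and 54.3% in HC/HT replicates 1 to 3 and 43.5%, 62.2%, 62.7% and 49.0% in HT replicates 1 to 4, so libraries with high and with ordinary enzyme levels overlapped in this share. The sample numbers in the labels run lower for every Apoe knockout library than for every other one, so any order of processing and the genotype cannot be told apart. 

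Several members overlap another gene in GENCODE on GRCm38, and the labels do not say whether the authors counted by strand. FDFT1 overlaps Ctsb, CYP51 overlaps Akap9, LBR overlaps Dnah14, GGPS1 overlaps Arid4b, SREBF1 overlaps Rai1 and LSS overlaps 4930483K19Rik, each on the opposite strand. TM7SF2 overlaps Vps51 and MBTPS2 overlaps Yy2 on the same strand. HMGCS1 (chr13:119690379-119708260), SQLE (chr15:59315077-59331192), SC4MOL (chr8:64718139-64733792) and INSIG1 (chr5:28071363-28078662) overlap no other gene that has a row in the table.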

How the data were processed

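Per the labels' protocols, RNA of aortic valves was reverse transcribed and amplified with the Nugen Ovation kit and made into libraries with a KAPA kit. Per the submitters' processing notes, the tools were Bowtie 1.0.1, SAMtools 0.1.9, FastQC 0.11.2 and edgeR (no version), with mm10. Not given in the sources used here are the counter and the normalising step. The table deposited by the authors holds whole numbers per gene and library, described as normalised counts and treated here as a score, a unit with no fixed range. Of its columns 1 has no name and was not used. All values were multiplied by 0.0979537. Genes reaching 1 unit in 4 or more of the 15 libraries were tested in R 4.3.3 with limma 3.58.1 (a linear fit with trended, robust eBayes) on log2(units + a pseudocount of 1), which makes differences of low genes smaller. The 28 members, the lists and the rules were chosen with earlier results of these data known. Values in every library are given for 10 members fixed by name and for the 3 with the smallest p in HC, HT and HC/HT against CON and in pooled hypertensive against normotensive. TM7SF2, IDI1, FDPS, DHCR7 and others are given by range. Of the other lists, genes past the threshold and otherwise the 2 smallest p in HC/HT against CON are named. Promoters were read from RefSeq tables by symbol. Alternatives were median-of-ratios factors, quantile normalisation, pseudocounts of 0.25 and 4, no filter and a filter at 5 units, no sex term, a replicate block, array weights, only the groups compared, and each library left out in turn. On data simulated for HC/HT against CON (14782 genes), the fit recovered 2 of 50 genes changed by 1 on the log2 scale, 37 of 50 changed by 2, 49 of 50 changed by 3 and 47 of 50 changed by 4, with 5 false calls among 140. The simulated noise was independent for each gene, without scaling shifts between libraries or a split within a group. Only genes with a mean log2 level above 2 were changed. These rates therefore need not hold for the 28 members.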

Additional observations from a re-analysis of the deposited data

Results flagged for a closer look

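TM7SF2, a sterol reductase, differed in opposite directions with hypertension in Apoe-intact mice (log2 -0.70 in HT against CON, from group means) and in knockout mice (0.96 in HC/HT against HC). The knockout difference was -0.77 in normotensive and 0.89 in hypertensive mice, and the interaction was 1.52 ± 0.64 with a limma adjusted p of 1.00, so the difference did not pass the test. Levels of TM7SF2 were low, and its CON range, 0.588 to 6.37 units, held every HC and HC/HT library. The gene also overlaps Vps51 on the same strand. For INSIG2 the knockout difference was -0.11 in normotensive and 0.45 in hypertensive mice, with an interaction of 0.61 ± 0.51 and a limma adjusted p of 1.00.

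Single libraries stood far from the rest of their group in 4 of 84 groups of 4, and chance alone gives about 1 in 20. HSD17B7 in HC replicate 4 was at 25.1 units, with the other HC libraries between 18.3 and 19.4. EBP in HT replicate 1 was at 9.70 units, with the others between 1.27 and 2.45, and EBP in HC replicate 4 was at 4.41 units, with the others between 13.8 and 14.9. SREBF1 in CON replicate 4 was at 10.3 units, with the others between 33.9 and 36.2.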

How the results depend on the processing

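In HC/HT against CON, where 0 members passed, the count was 1 with median-of-ratios factors and 1 with quantile normalisation (SC4MOL in both), 2 with array weights (ACAT1, SC4MOL), 2 with only the groups compared (SC4MOL, SQLE) and 0 to 6 with each library left out in turn. It was 4 with median-of-ratios factors and array weights together (ACAT2, CYP51, HMGCS1, SC4MOL), an alternative chosen after seeing the data, as was the omission of 3 libraries. All genes called numbered 111, 106, 726, 149 and 313 in the 5 scaling, weight and group settings, against 70. In HT against CON array weights gave 2 (INSIG2, SREBF1), with 412 genes called in all. In pooled hypertensive against normotensive, array weights gave 6 (2089 genes), median-of-ratios factors with array weights gave 1, and leaving out each library 0 to 2. SREBF1 in HC/HT against CON (-0.13) reversed to 0.0715 with median-of-ratios factors, 0.0513 with quantile normalisation and 0.10 without the 3 libraries, and lay between -0.58 and 0.18 with each library left out. The cause of these changes was not tested. The member median in HC/HT against HT lay between 0.41 and 1.32 with each library left out. Of the 672 other values of named members, 638 kept direction and side of the threshold, 29 passed it and 5 reversed. Same-numbered libraries do not pair by the labels, and their deviations correlated at -0.12 to 0.27 (median 0.07, 8 of 21 pairs over 0.1). A replicate block gave 2 members in HC/HT against CON (ACAT1, SC4MOL; 222 genes) and 3 in pooled hypertensive against normotensive (ACAT1, EBP, SC4MOL; 768 genes), and 0 in the other 6 comparisons. Depth is unknown, so low genes such as MVD and LSS carry unknown counting error.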
